A study of Mus musculus with 5 samples.

Results

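CM1-dominant spots are the spots of a Visium section whose highest cell type score is that of CM1, the main ventricular cardiomyocyte state of the neonatal mouse heart. They were taken as the spots with CM1 the highest of the 11 type scores deposited with each section (CM1 to CM5, fibroblast, endothelial, endocardial, pericyte and smooth muscle, macrophage and epicardial) and with at least 1000 unique molecular identifiers (UMIs, 1 per captured RNA molecule). The rule gave 1650 of the 3364 spots of the series. A Visium spot reads the polyadenylated RNA of a small area of a tissue section that can hold several cells, so these are regions rich in CM1 and not single cells.

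All hearts were from wild-type C57BL/6 mice operated on at postnatal day 1 and sectioned transversely, 200 µm below the suture in MI hearts and at the matching place in sham hearts. For myocardial infarction (MI) the left anterior descending artery was tied off, and sham hearts had the chest opened without a ligation. Hearts were collected 3 or 7 days later, which gave 1 section each for Sham day 3, Sham day 7 and MI day 3 and 2 for MI day 7, the second from an independent repeat. With 1 section in 3 of the 4 groups, differences were fitted across all 5 sections. The p-values rest on the spread between sections, with the error of each gene drawn in part from the other genes.

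Ventricular cardiomyocytes beat by sliding thick filaments of myosin along thin filaments of actin, under the control of calcium released from the sarcoplasmic reticulum. In the days after birth they leave the cell cycle, exchange fetal contractile isoforms for adult ones (beta-myosin heavy chain, Myh7, for alpha-myosin heavy chain, Myh6, in rodents) and turn from glucose to fatty acids as their main fuel. A heart injured in the first days of life still has cardiomyocytes that can divide, and CM4 is the cardiomyocyte state linked to that response.

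CM1 spots numbered 244 in Sham day 3, 383 in Sham day 7, 200 in MI day 3, 337 in MI day 7 replicate 1 and 486 in MI day 7 replicate 2. They were 44.9% of the spots over the UMI minimum in Sham day 3 (95% Clopper-Pearson interval 40.7 to 49.2, which covers counting error only), 39.9% in Sham day 7 (36.8 to 43.1), 54.8% in MI day 3 (49.5 to 59.98), 49.0% in MI day 7 replicate 1 (45.2 to 52.8) and 61.8% in MI day 7 replicate 2 (58.3 to 65.2). The 3 MI sections all had a larger share than the 2 sham sections, with means of 55.2% and 42.4%. The difference of 12.8 percentage points is given as a description, since the share follows from the scores that chose the spots and 3 against 2 sections cannot give an exact permutation p under 0.2. The median UMI count of a CM1 spot was 21806, 23269, 34606, 54227 and 21174 in the order Sham day 3, Sham day 7, MI day 3, MI day 7 replicate 1 and MI day 7 replicate 2, the order kept wherever values are listed by section. CM1 spots also had more UMIs than the pooled spots led by a non-cardiomyocyte score (non-CM spots, 1254 in all) in 4 of 5 sections, by a mean of 0.08 on the log2 scale. They held fewer genes per spot than non-CM spots in 5 of 5 sections (mean log2 difference -0.06). The rule used the UMI count as a minimum, and 5 sections cannot give an exact sign-flip p under 0.0625, so both are given as a description.

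**Figure D1:**
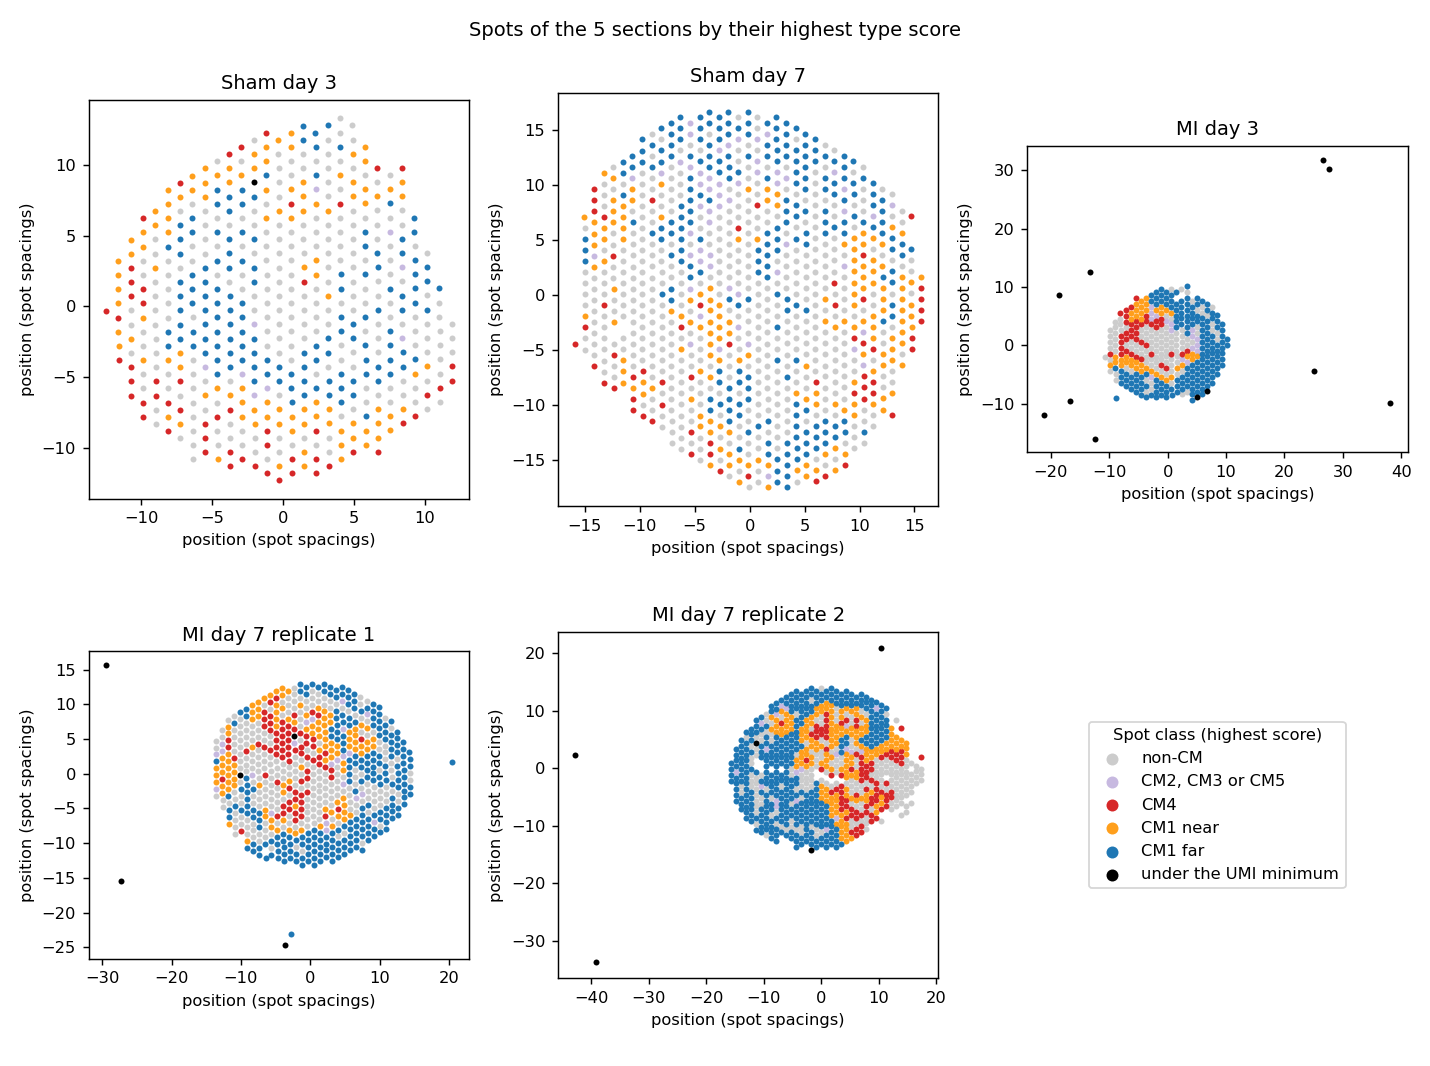
Position of every spot in the 5 sections, in units of the distance between neighbouring spots, coloured by the highest score; orange are CM1 spots in the first or second ring of spots around a CM4-dominant spot, blue are CM1 spots beyond it, red are CM4-dominant spots, grey are non-CM spots, lilac are spots led by CM2, CM3 or CM5 and black are spots under 1000 UMIs. CM1 spots make a near-continuous wall in the MI sections, where 70.1% to 80.1% of the neighbours of a CM1 spot are CM1 spots, and are more broken up in the sham sections (58.9% and 54.8%).

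The mean CM1 score of these spots was 0.592 ± 0.143 (SD over spots) in Sham day 3, 0.562 ± 0.15 in Sham day 7, 0.768 ± 0.163 in MI day 3, 0.749 ± 0.204 in MI day 7 replicate 1 and 0.658 ± 0.171 in MI day 7 replicate 2. The MI sections did not overlap the sham sections (means 0.725 and 0.577). No test is given, because the rule used this score. The remainder of the score differed in make-up. CM2 took 0.0786 and 0.0629 in the sham sections and at most 0.0120 in the MI sections, while CM5 took 0.0292 and 0.0263 in sham and 0.0590 to 0.0856 in MI. The summed score of all cardiomyocyte states was much closer, between 0.842 and 0.908. Between 5 and 26 spots per section passed the rule by a margin of at most 0.05 over the next score, while 6 to 36 missed it by as little. In the 3 MI sections 11, 5 and 5 spots led by CM1 fell under the UMI minimum, at 971 UMIs or less, and the lowest kept there had 1002. The MI sections also held 3 kept CM1 spots with no neighbouring spot.

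The 5 cardiomyocyte markers checked the label. Tnnt2 (cardiac troponin T) was at 5675, 5664, 5758, 4892 and 5610 CPM (the count of a gene scaled to a fixed total per spot) in CM1 spots against 5027, 4938, 4180, 4625 and 4163 CPM in non-CM spots. Ryr2, the calcium release channel, was at 396.4, 373.8, 427.9, 384.9 and 373.4 CPM in CM1 spots and between 240 and 331.5 CPM in non-CM spots. The summed level of the 5 markers (with Myh6, Actc1 and Ttn) was higher in CM1 spots in 5 of 5 sections, at 22538 to 27783 against 16880 to 24802 CPM. All 5 markers were high in non-CM spots too, so that spots of both classes contained cardiomyocyte RNA. Markers of other cell types were present in CM1 spots, with the 12 fibroblast markers at a sum of 3263 to 4973 CPM (6976 to 18768 in non-CM spots) and the 15 immune markers at 120 to 516 CPM (242 to 4832). The 9 endothelial markers were at 2271 to 2716 CPM, and higher than in non-CM spots (2103 to 2710 CPM) in 3 of 5 sections, and the sum of the 6 blood markers was higher in 2 of 5. A lower level of a gene in such a spot can come from fewer cells of a type or from less RNA per cell, which cannot be told apart here.

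Set against non-CM spots, the CM1 spots had higher levels of genes of oxidative metabolism. The scores were made from the same expression values, so the gene levels of both classes are given as a description with no test. Among 2854 genes at 50 CPM or more in the higher class, 342 were higher and 1357 lower in CM1 spots in all 5 sections, and the median log2 ratio of all genes was -0.16. Mitochondrially encoded subunits led the higher genes, with mt-Co2 (a cytochrome c oxidase subunit) at a median log2 ratio of 0.49 and a range over sections of 0.12 to 0.97. Mlycd, the malonyl-CoA decarboxylase that relieves the brake on fatty acid import, followed at a median of 0.48. Of the 29 measured genes of fatty acid uptake and oxidation 23 were higher in all 5 sections and 0 lower (median log2 ratio 0.25). The same was true of 15 of 17 tricarboxylic acid (TCA) cycle genes (median 0.23) and 36 of 40 nuclear genes of the respiratory complexes (median 0.19). At the other end stood matrix and smooth muscle genes, with Eln (elastin) at a median log2 ratio of -2.43 and Tagln at -2.27, followed by Nppa, the atrial natriuretic peptide of the fetal and stressed ventricle, at -1.86. Imprinted growth genes were lower in CM1 spots for 13 of 18 and higher for 0 (median -0.49). For S phase and mitotic genes the count was 16 of 30 lower and 0 higher (median -0.26), a share near that of all genes.

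Within the CM1 spots, more genes differed between the days than between the operations. At day 7 against day 3, across both operations, 102 genes were higher (0.799% of 12767 tested) and 329 were lower (2.58%) at an adjusted p under 0.05 in limma, where day and operation were fitted together on log2(CPM + 1). Beta-myosin and the fasting-type genes Angptl4, Acot1 and Pdk4 fell, while mitochondrial creatine kinase Ckmt2 rose. The median difference over all genes was -0.16, so a typical gene was slightly lower at day 7. Where CPM were rescaled by median-of-ratios factors that median became -0.01, and the calls changed to 192 higher and 111 lower (63.4% higher, against 23.7% with CPM), so the balance of rises and falls depended on the scaling. Named genes are the 10 largest rises and 10 largest falls among genes at 20 CPM or more whose day 3 and day 7 sections do not overlap, a condition met upward by 305 (5.46%) and downward by 2087 (37.4%) of 5587 genes. Differences are in log2(CPM + 1), where a low gene's change comes out too small.

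Among the sarcomere genes, beta-myosin was lower at day 7 in both operations. Myh7 was at 1775 CPM in Sham day 3 and 3409 CPM in MI day 3, against 530.6 CPM in Sham day 7 and 521.9 and 844.4 CPM in the MI day 7 sections. Both day 3 sections lay above all 3 day 7 sections, as the naming rule requires, with a 4.10-fold higher mean and a log2 difference of -2.09 (SE 0.21, limma adjusted p = 4.5e-05). Myh6 was at 6712, 8701, 6487, 7713 and 8229 CPM, higher in each day 7 section than in either day 3 section, but the difference of 0.33 missed the threshold (adjusted p = 0.348). Mhrt, a long non-coding RNA antisense to Myh7, moved the other way from Myh7, from 11.6 and 9.48 CPM at day 3 in sham and MI to 42.4, 21.3 and 30.9 CPM at day 7 (1.54, SE 0.19, adjusted p = 0.000391).

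The 3 genes lie side by side on chromosome 14 of GRCm38 (GENCODE M21). Myh6 (ENSMUSG00000040752, chr14:54941921-54966927) and Myh7 (ENSMUSG00000053093, chr14:54970684-54994626) are on the minus strand, and Mhrt (ENSMUSG00000097652, chr14:54968678-54974349) is on the plus strand and overlaps the end of Myh7. Whether the counting used the strand is not given in the sources used here, and reads from the overlap cannot be told apart without it. The promoters of Myh7 and Mhrt are shown because these neighbours moved in opposite directions. They cover 250 bases before to 50 bases after the start in the RefSeq annotation of GRCm38.p6, read 5′ to 3′ on the strand of the gene (Myh7 chr14:54994577-54994876, minus strand, and Mhrt chr14:54968537-54968836, plus strand), with each CCAAT box in either orientation in capitals.
Myh7: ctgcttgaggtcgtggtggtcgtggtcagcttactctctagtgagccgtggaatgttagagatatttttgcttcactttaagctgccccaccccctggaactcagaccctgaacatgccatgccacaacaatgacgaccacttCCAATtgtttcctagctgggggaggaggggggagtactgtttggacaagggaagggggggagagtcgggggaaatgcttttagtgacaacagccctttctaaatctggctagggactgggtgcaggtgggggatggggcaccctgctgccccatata
Mhrt: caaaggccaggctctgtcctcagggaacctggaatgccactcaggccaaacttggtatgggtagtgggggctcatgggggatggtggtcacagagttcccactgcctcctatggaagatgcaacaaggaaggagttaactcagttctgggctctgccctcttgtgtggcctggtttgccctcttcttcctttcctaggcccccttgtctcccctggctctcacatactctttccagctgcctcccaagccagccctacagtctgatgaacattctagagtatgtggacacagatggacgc
Myh7 held 1 such box (CCAAT, or ATTGG on the other strand) and Mhrt 0. The box was present in 37.4% of 32851 promoters of the same length and in 8 of the 16 promoters matched among the 20 genes named for the day comparison. TATAAA, searched on both strands, was present in 13.6% of all promoters and in 1 of those 16, that of Nppa.

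Other isoforms of the fetal or atrial heart fell with Myh7, among them Tnni1 and Myl4, while the fetal actins Acta1 (-0.03, limma adjusted p = 0.973) and Acta2 (-0.31, 0.536) did not pass. Tnni1, the slow skeletal troponin I of the fetal heart, was at 2375, 986, 1834, 849.5 and 1045 CPM, higher in both day 3 sections (-1.09, limma adjusted p = 0.00227). The atrial light chain Myl7 was low everywhere, at 20.05 and 24.47 CPM in the day 3 sections (sham and MI) and between 0.605 and 1.654 CPM in the 3 day 7 sections. It passed the filter on low values through the day 3 sections, so no test is given for it. The embryonic light chain Myl4 fell as well (-1.40, adjusted p = 0.000231). Of the 11 thick filament genes Myh7 and Myl4 fell and 0 rose, Myl7 left aside, with a list median of -0.05, and of the 12 thin filament genes Tnni1 fell and 0 rose (median 0.10). Among 16 Z-disc genes 3 rose, namely Tcap (0.64, adjusted p = 0.0301), Fhl2 (0.71, 0.0222) and Xirp2 (1.03, 0.0184), and 0 fell. Of the 15 calcium handling genes Cacna1c, the L-type calcium channel, fell (-0.58, adjusted p = 0.0463), and 0 of 12 intercalated disc genes passed in either direction. Cacna1c lost its call under 4 of 10 alternatives that kept all sections, median-of-ratios scaling among them, and without any 1 section but MI day 7 replicate 1. Tcap and Fhl2 lost theirs in CM1 spots away from other types and without Sham day 3, Sham day 7 or MI day 3, Tcap also without MI day 7 replicate 2. Xirp2 lost its call without Sham day 3 or Sham day 7, and Tnni1 without either of these or MI day 3.

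The 12 fetal and stress genes, a list that shares several of the genes above, had 6 falls, 1 rise and a median of -0.79 against -0.16 for all genes. Myl7 is among the 6 and is no support for the list, since it passed the filter through the day 3 sections. Nppa was at 573, 248.3, 3346, 56.2 and 415.7 CPM, with the highest value in MI day 3 (-3.05, SE 0.64, limma adjusted p = 0.0174). Its call rested on MI day 3, without which the difference was -1.20 (adjusted p = 0.0555), and it was also lost under median-of-ratios scaling (0.0965), without mitochondrial and haemoglobin genes in the total (0.0872) and in CM1 spots away from other types (0.0765). Hey2, a Notch target that marks compact ventricular wall, was at 39.9, 8.51, 45.1, 11.9 and 15.1 CPM (-1.86, SE 0.18, adjusted p = 3.46e-05).

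**Figure D2:**
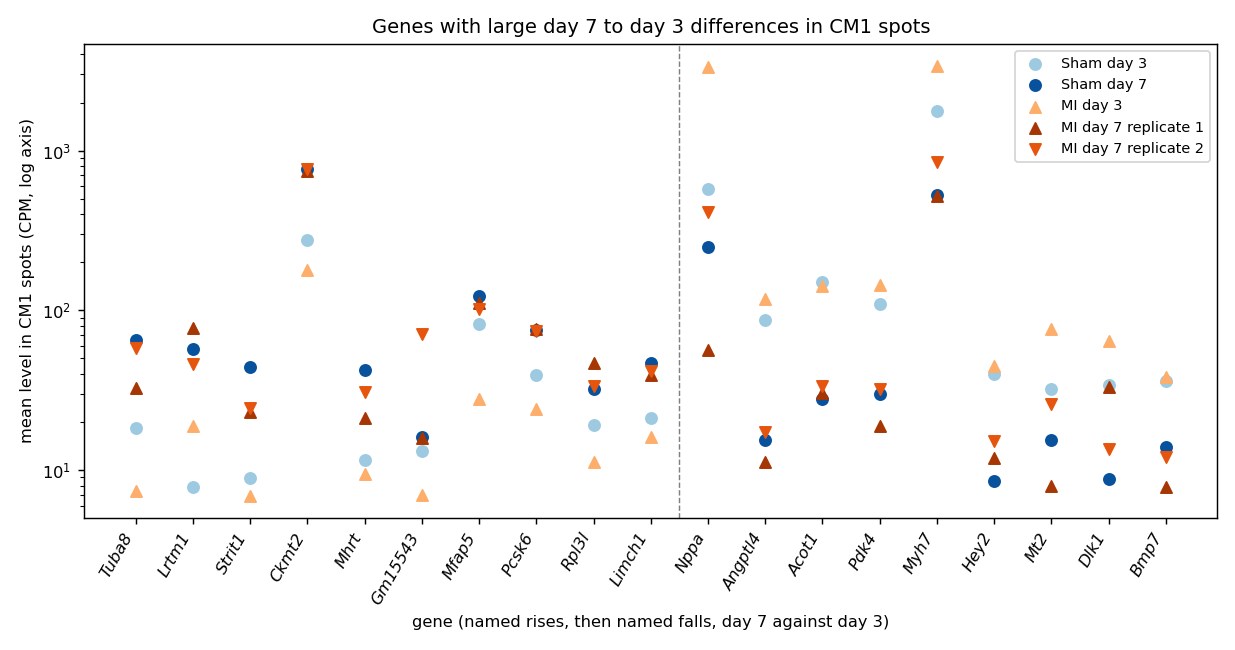
Mean level in CM1 spots (CPM, log axis) of the named rises and falls at day 7 against day 3, 1 point per section, circles sham and triangles MI. The day 3 and day 7 points do not overlap, by the rule that chose the genes; Myh7 sits at 1775 and 3409 CPM at day 3 and at 521.9 to 844.4 CPM at day 7.

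Fuel genes changed at single steps. Oxct1, the enzyme that burns ketone bodies, was at 124.9, 299.6, 106.9, 149.2 and 199.3 CPM (0.93, limma adjusted p = 0.0084), with every day 7 section above both day 3 sections, and lost its call without Sham day 3 or Sham day 7.

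Angptl4, a secreted inhibitor of lipoprotein lipase, was at 87.4, 15.5, 117.8, 11.2 and 17.4 CPM (-2.75, SE 0.20, limma adjusted p = 1.54e-06). Acot1, which cleaves fatty acyl-CoA, was at 150.5, 27.7, 141.8, 30.2 and 33.8 CPM (-2.24, SE 0.15, adjusted p = 1.33e-06). Pdk4, the kinase that inhibits pyruvate dehydrogenase and so limits glucose oxidation, was at 108.9, 30.0, 143.4, 19 and 32.3 CPM (-2.20, SE 0.21, adjusted p = 3.18e-05). In all 3 the sham and MI sections of a day were closer to each other than to those of the other day. With Cpt1a (-0.99, adjusted p = 0.00756) and Ucp3 (-1.14, 0.00349) these include known targets of the fatty acid receptor PPARα. Without MI day 3 the calls of Cpt1a and Ucp3 were lost, that of Cpt1a also in CM1 spots away from other types. The list of fatty acid uptake and oxidation as a whole did not follow them, with 4 falls (Cpt1a, Pdk4 and Ucp3 among them) and 0 rises among 29 genes and a median of -0.16, equal to that of all genes, or 0.01 under median-of-ratios scaling.

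A gene of energy transfer was among the rises. Ckmt2, the mitochondrial creatine kinase, was at 275.2, 770.1, 179.2, 748.4 and 772.1 CPM, with the 3 day 7 sections close together and far above both day 3 sections (1.82, SE 0.17, limma adjusted p = 2.22e-05). The insulin-responsive glucose transporter Slc2a4 rose (0.67, adjusted p = 0.0232), the only gene called among 19 of glucose metabolism, a call lost in CM1 spots away from other types and without Sham day 3, Sham day 7 or MI day 3. The 17 TCA cycle genes (median 0.19, 16 with a positive difference), the 40 nuclear respiratory genes (median 0.20, 36 positive) and the 13 mitochondrially encoded genes (median 0.24) lay above the all-gene median, but 0 of them passed the test in either direction.

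The largest named rises were in genes of lower level. Tuba8, an alpha-tubulin of striated muscle, was at 18.3, 64.8, 7.45, 32.5 and 58.3 CPM (2.13, SE 0.22, limma adjusted p = 8.01e-05). Lrtm1 was at 7.83, 57.3, 18.8, 77.9 and 46.0 CPM (2.09, SE 0.24, adjusted p = 0.000231). Strit1, whose micropeptide stimulates the sarcoplasmic reticulum calcium pump, was at 8.95, 44.0, 6.87, 23.1 and 24.6 CPM (1.88, SE 0.18, adjusted p = 3.18e-05). All 3 had both day 3 sections below the day 7 sections, as the naming rule requires. Mfap5, Pcsk6, Rpl3l (the striated muscle form of a ribosomal protein) and Limch1 rose by 1.20 to 1.33, calls that were lost without MI day 3, and Gm15543 (1.33) did not pass (adjusted p = 0.112).

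Some growth and cell cycle genes were called lower at day 7. Of 30 S phase and mitotic genes 14 fell and 0 rose, all 30 had a negative difference and the median was -0.75. This count moved with the setting, to 5 falls under median-of-ratios scaling (median -0.58) and to 1 fall in CM1 spots away from CM4 and non-CM spots (median -0.78). Without MI day 3, 13 of the 14 calls were lost, all but that of Mcm2, which was lost without either sham section. Of 18 imprinted genes 6 fell and 0 rose (median -0.58), of which Plagl1 and Dlk1 were still called without MI day 3. Igf2, the fetal insulin-like growth factor, was at 412.9, 188, 317.8, 186.3 and 173.5 CPM (-0.95, limma adjusted p = 0.0025), and its neighbour H19 fell by 1.05 on the log2 scale (0.00281). Plagl1, a zinc finger regulator of imprinted genes, differed by -1.57 (0.000133) and Dlk1, a Notch-like membrane protein, by -1.68 (0.0022). Bmp7 (-1.63, adjusted p = 0.000391) and the metallothionein Mt2 (-1.76, 0.0127) were the remaining named falls. Dlk1 and Mt2 lost their calls under median-of-ratios scaling, Mt2 also without mitochondrial and haemoglobin genes in the total. Without MI day 3 the calls of Mt2, Igf2, H19, Grb10 and Igf2r were lost, and that of Igf2 also without Sham day 3 or Sham day 7. Proteasome (31), antioxidant (23) and translation (15) genes had 0 calls in either direction and medians of -0.07, -0.18 and -0.26.

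**Figure D3:**
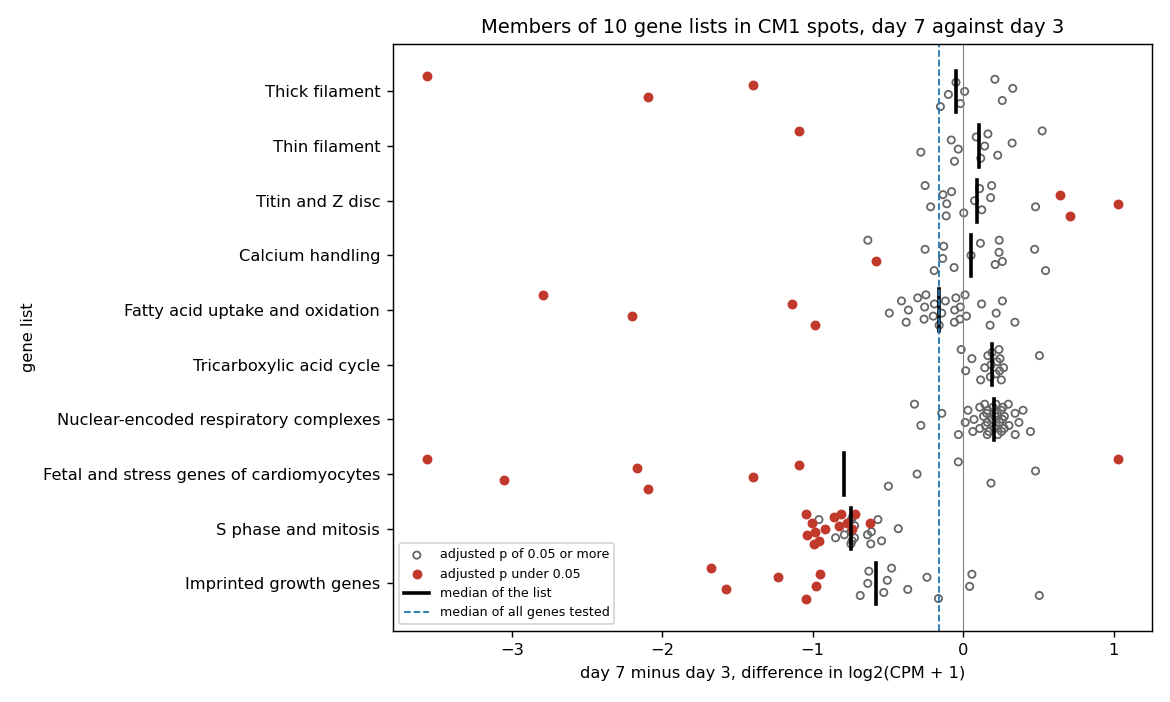
Day 7 minus day 3 difference in log2(CPM + 1) in CM1 spots for each tested member of 10 gene lists; filled red points passed the limma test, open points did not, black bars are list medians and the dashed line is the median of all genes. The 30 S phase and mitotic genes all lie below 0 (median -0.75), while TCA cycle and respiratory genes cluster right of the dashed line at -0.16 with 0 calls.

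Of the marker lists of other cell types, immune markers had 3 falls among 15 (S100a8, S100a9 and Spp1, median -0.68) and mural markers 1 rise among 6 (Rgs5, 0.72, limma adjusted p = 0.0222). All 4 lost their call in CM1 spots away from other types and without MI day 3, the immune markers also under median-of-ratios scaling, and Rgs5 also without either sham section. Fibroblast, endothelial, endocardial, blood and epicardial markers had 0 calls. Their part in the day differences was not tested. The female-specific transcript Xist was listed in CM1 spots of Sham day 3 (37.41 CPM) and MI day 7 replicate 1 (46.03 CPM), and the Y-linked Ddx3y was at 30.2 to 35.4 CPM in the other 3 sections, so the sex of the hearts crossed both the days and the operations. The additive fit had 2 residual degrees of freedom and took a prior worth 13.5 from the other genes, so each gene's error was largely borrowed.

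MI against sham gave far fewer differences in the same spots, with 33 genes higher (0.258% of 12767) and 9 lower (0.0705%) and a median over all genes of -0.04. Apoe and Glo1 were higher and Slc38a4 and Tpm3 lower in all 3 MI sections. Of the thick and thin filament, Z-disc, calcium, ion channel, intercalated disc, fatty acid, ketone, glucose, TCA, respiratory, mitochondrially encoded, S phase, imprinted, proteasome, antioxidant, translation and fetal and stress lists 0 members passed in either direction. The named genes follow the same rule as for the days, on sections that do not overlap between operations (180 of 5587 genes higher in MI, 3.22%, and 723 lower, 12.9%).

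Apoe, the lipid carrier made by macrophages and other cells, was at 127.2, 72.9, 400.6, 138.9 and 149 CPM, with MI day 3 the highest and Sham day 7 the lowest (1.26, SE 0.17, limma adjusted p = 0.00383). It lost its call without Sham day 3 (adjusted p = 0.157) or without MI day 3 (0.130). Glo1, the glyoxalase that detoxifies methylglyoxal, was at 167.4, 105.5, 279.7, 248.4 and 294.3 CPM (1.09, SE 0.17, adjusted p = 0.00971). Its call was lost without Sham day 7.

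The matrix gene Fbln1 was at 28.8, 26.5, 57.5, 42.8 and 65.7 CPM (0.97, limma adjusted p = 0.0371) and the alpha-globin gene Hba-a2 at 83.0, 135.3, 270.4, 329.1 and 177.9 CPM (1.20, 0.0462). Neither overlapped between operations, by the rule that named them. Both lost their call under median-of-ratios scaling, in CM1 spots away from other types and without Sham day 3 or MI day 3, Fbln1 also at a CM1 score of at least 0.5 and without Sham day 7, and Hba-a2 also without MI day 7 replicate 1. These genes moved with markers of other cells, whose part in them was not tested. The 15 immune markers all had a positive difference (median 0.98) and summed to 119.95, 124.08, 515.65, 198.84 and 172.41 CPM by section. Their 1 call was that of Spp1, which was under 1 CPM in both sham sections and passed the filter on low values only through the MI sections, so it is no support for the list. The 6 blood markers were also all positive (median 0.86, with Hba-a2 the 1 called), with sums of 3837.8, 6395.6, 11087, 8682.1 and 9987.6 CPM, and 1 of 12 fibroblast markers was called (Fbln1, median 0.27). Lyz2 (1.45, adjusted p = 0.057), Mfap4 (1.05, 0.199), Mgp (0.99, 0.167), Hbb-bs (0.99, 0.0822), Cmss1 (0.99, 0.0861) and Hba-a1 (0.95, 0.0918) did not pass.

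Among the lower genes Slc38a4, an imprinted amino acid transporter, was at 125.5, 84.6, 63.2, 38.7 and 42.6 CPM (-1.01, SE 0.15, limma adjusted p = 0.00731). The chromatin protein gene Dek was at 101.1, 74.5, 56.8, 33.5 and 43.2 CPM (-0.90, adjusted p = 0.0305). The tropomyosin gene Tpm3 was at 70.8, 68.6, 42.6, 34.1 and 27.8 CPM (-0.95, 0.0266). In each the lowest sham section was above the highest MI section, as the naming rule requires. All 3 lost their call in CM1 spots away from other types and without Sham day 7, Dek also without Sham day 3 or MI day 3, and Tpm3 also under median-of-ratios scaling and without mitochondrial and haemoglobin genes in the total. Myl9, a smooth muscle myosin light chain, had a large gap between the operations at 663.1, 547.6, 341.5, 124.5 and 294.8 CPM but missed the threshold (-1.27, adjusted p = 0.0524), as did Ccn3 (-1.35, 0.057), BC004004 (-0.83, 0.0509), Hmgcs1 (-0.83, 0.0724), Cdc37l1 (-0.81, 0.0988) and Polr2l (-0.81, 0.432). Mt3, a metallothionein, passed only just (-1.17, adjusted p = 0.05 after rounding) and lost its call under 5 of 10 alternatives with all sections and without Sham day 3 or MI day 3.

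**Figure D4:**
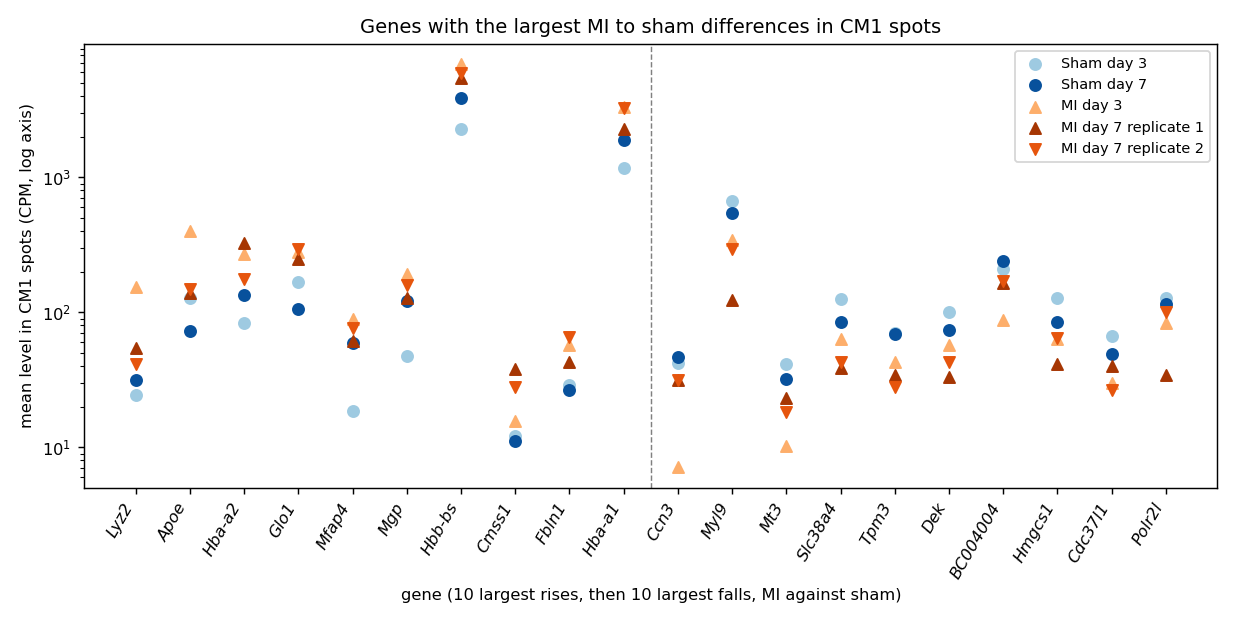
Mean level in CM1 spots (CPM, log axis) of the 10 largest rises and 10 largest falls in MI against sham, 1 point per section, circles sham and triangles MI. Operations do not overlap by the rule that chose the genes, and the MI points spread over a wide range, as for Apoe between 138.9 and 400.6 CPM.

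Lists that passed nothing still lay to one side. The 13 mitochondrially encoded genes were all positive in MI (median 0.32), the 40 nuclear respiratory genes were all negative (median -0.17, with 6 positive once mitochondrial and haemoglobin genes were out of the total) and the 30 S phase and mitotic genes were all negative (median -0.40). The mitochondrially encoded share of the reads in CM1 spots was 16.3%, 16.2%, 17.1%, 27.9% and 17.1%, so that MI day 7 replicate 1 stood apart from the other 4 sections. Leaving out mitochondrial and haemoglobin genes before scaling reduced the 42 calls to 16.

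MI and sham sections were also compared on the CM1 minus non-CM difference of each section. Scores made from the same expression values set both classes, and the mean CM1 score was 0.725 in MI and 0.577 in sham sections. A change in the make-up of the classes therefore cannot be told apart from a change within them. The CM1 minus non-CM difference was higher in MI for 2 genes (0.015% of 13346, Ddc at 0.81 among them) and lower for 14 (0.105%). Nppa had the smallest p-value, since it was at 691.8, 350.4, 12170, 246.4 and 2103 CPM in non-CM spots and the CM1 minus non-CM difference was lower in MI by 1.67 on the log2 scale (limma adjusted p = 2.2e-06). Clu (-1.42), Lgals3 (-2.03, adjusted p = 0.0379) and Acta1 (-0.86, 0.029) were also lower. Only Nppa kept its call in all 9 alternatives that used every section, and 0 of the 16 did so when each section was left out in turn.

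CM1 spots were also compared by their position in the wall. CM1 spots in the first or second ring of spots around a CM4-dominant spot (near spots, numbering 107, 155, 42, 109 and 156 by section) were compared with the remaining CM1 spots (far) of the same section. In MI 71 genes were higher near CM4 spots (0.539% of 13172) and 25 lower (0.19%), with natriuretic peptides and fetal actins higher and mitochondrially encoded genes lower. In sham sections 10 genes were higher (0.0759%) and 0 lower (0%, with 577 lower at an unadjusted p under 0.05), and all 10 were mitochondrially encoded. These 10 calls were all lost under median-of-ratios scaling and without Sham day 3. The difference between MI and sham was itself called for 31 genes upward (0.235%) and 16 downward (0.121%). The all-gene median was 0.10 in MI and -0.03 in sham. Under median-of-ratios scaling it was 0.00 in MI and the calls there became 15 higher and 50 lower (23.1% higher, against 74.0%).

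Nppa was at 585.9 CPM near and 563 far in Sham day 3, 294.8 and 216.7 in Sham day 7, 7998 and 2109 in MI day 3, 92.8 and 38.6 in MI day 7 replicate 1, and 857.5 and 206.9 in MI day 7 replicate 2. The near level was above the far level in all 5 sections, by the largest ratios in the 3 MI sections. The near minus far difference was 1.74 in MI (SE 0.07, limma adjusted p = 1.49e-22) and 0.25 in sham (0.544), and the difference between these was 1.49 (SE 0.12, 1.3e-12). Near minus far values of the 3 MI sections spread more widely than the SE of 0.07, which draws on the errors of other genes. Nppb, the B-type natriuretic peptide, was at 385 near and 126.9 far, 137.6 and 93.7, and 242.5 and 170.7 CPM in the 3 MI sections (0.88, adjusted p = 2.94e-08), and its difference from sham was 0.76 (0.00507).

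Clu, the extracellular chaperone clusterin, was at 841.4 near and 236.9 far, 42.1 and 32.2, and 108.1 and 55.0 CPM in the MI sections (1.05, limma adjusted p = 6.84e-08), with 51.0 and 47.3, and 46.7 and 52.7 CPM in sham. Nmrk2, a muscle kinase of NAD synthesis that rises in strained heart, was at 53.1 and 23.4, 8.28 and 3.98, and 53.0 and 25.0 CPM in the MI sections (1.03, adjusted p = 9.83e-07). Both differed from sham, by 1.09 (0.000571) and 1.11 (0.00252). The near to far ratio of Clu was largest in MI day 3 and smallest in MI day 7 replicate 1, a spread that its p-value does not measure. The 12 fetal and stress genes had 7 rises near CM4 spots in MI (Nppa, Nppb, Acta1, Acta2, Ankrd1, Xirp2 and Cnn1), 0 falls and a median of 0.55, and 4 of them (Nppa, Nppb, Acta2 and Ankrd1) also differed from sham. The paper uses Acta2 as a CM4 marker, so its rise near CM4 spots is no independent support. The difference from sham was lost for Acta2 and Ankrd1 under 8 of 10 alternatives with all sections and without Sham day 3 or MI day 3, for Nppb without either sham section, for Clu without Sham day 7 and for Nmrk2 at a CM1 score of at least 0.5 and without Sham day 3. Acta1 (0.75, adjusted p = 2.76e-06) and Xirp2 (0.75, 0.00193) rose in MI (Xirp2 and Cnn1 not without MI day 3) but the differences of Acta1 and Xirp2 from sham missed the threshold (0.23, 0.636, and 0.31, 0.652).

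The genes that were lower near CM4 spots included the day 7 gene Lrtm1, at 11.5 near and 20.8 far, 66.2 and 83.4, and 21.1 and 57.8 CPM in the MI sections and 10.8 and 5.5, and 70.6 and 48.3 CPM in sham (-0.85, limma adjusted p = 9.78e-05; difference from sham -1.55, 5.82e-06). Ddc, the aromatic amino acid decarboxylase, was at 105 and 206.5, 70.9 and 81.0, and 119.3 and 203.7 CPM in MI and at 141.4 and 91.8, and 59.3 and 52.8 CPM in sham (-0.64, 6.49e-06; difference -1.03, 5.82e-06). Both genes thus ran opposite ways in MI and sham sections, the difference for Ddc was not called without Sham day 3, and the fall of Lrtm1 in MI was not called without MI day 7 replicate 2 (adjusted p = 0.0881). Hbb-bt (-0.46, 0.000135) and Hba-a1 (-0.45, 0.000103) were lower near CM4 spots in MI, with 4 of the 6 blood markers called lower (all but Hbb-bs not in the first ring alone, and Hbb-bt and Hba-a2 not without MI day 3), and Prrx1 missed the threshold (-0.55, 0.0696).

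Atp2a2, the sarcoplasmic reticulum calcium pump (-0.15, limma adjusted p = 0.00435), its inhibitor Pln (-0.16, 0.00182) and Cacna1c (-0.30, 0.0176) were lower near CM4 spots in MI, by small amounts, and S100a1 was higher. Cacna1c lost its call without each of the 3 MI sections, S100a1 under median-of-ratios scaling and without MI day 3 or MI day 7 replicate 2, Pln in the first ring alone and Atp2a2 without MI day 7 replicate 2. The glycolytic genes Pgam1 (0.39, 0.000702), Gapdh (0.17) and Pgk1 (0.19) rose, 3 of 19 glucose genes with 0 falls (median 0.17), and 5 of 30 S phase and mitotic genes rose (Birc5, Ube2c, Pcna, Rrm2 and Tubb5, median 0.29). The calls of these 3 glycolytic and 5 S phase and mitotic genes were lost under 1 to 5 of 10 alternatives that kept all sections. The glycolytic calls were also lost without MI day 3 (Pgk1 also without either sham section), those of Birc5, Ube2c, Rrm2 and Pcna without MI day 7 replicate 1, those of Birc5 and Pcna without MI day 7 replicate 2 and that of Pcna without either sham section. Birc5 (0.78, adjusted p = 0.00343) and Rrm2 (0.72, 0.0111) also differed between MI and sham, Birc5 not in the first ring alone or without either sham section, and Rrm2 not under 3 of 10 alternatives with all sections or without Sham day 3 or MI day 7 replicate 1. Mitochondrially encoded genes fell for 11 of 13 in MI (median -0.23), rose for 10 of 13 in sham (median 0.31) and differed for 11. The 10 sham calls were lost under median-of-ratios scaling and without Sham day 3. For mt-Co2 the near minus far difference was -0.31 in MI (1.74e-08) and the difference from sham was -0.66 (1.3e-12). With mitochondrial and haemoglobin genes kept out of the total, the calls in MI fell from 96 to 56 and those in sham from 10 to 1.

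**Figure D5:**
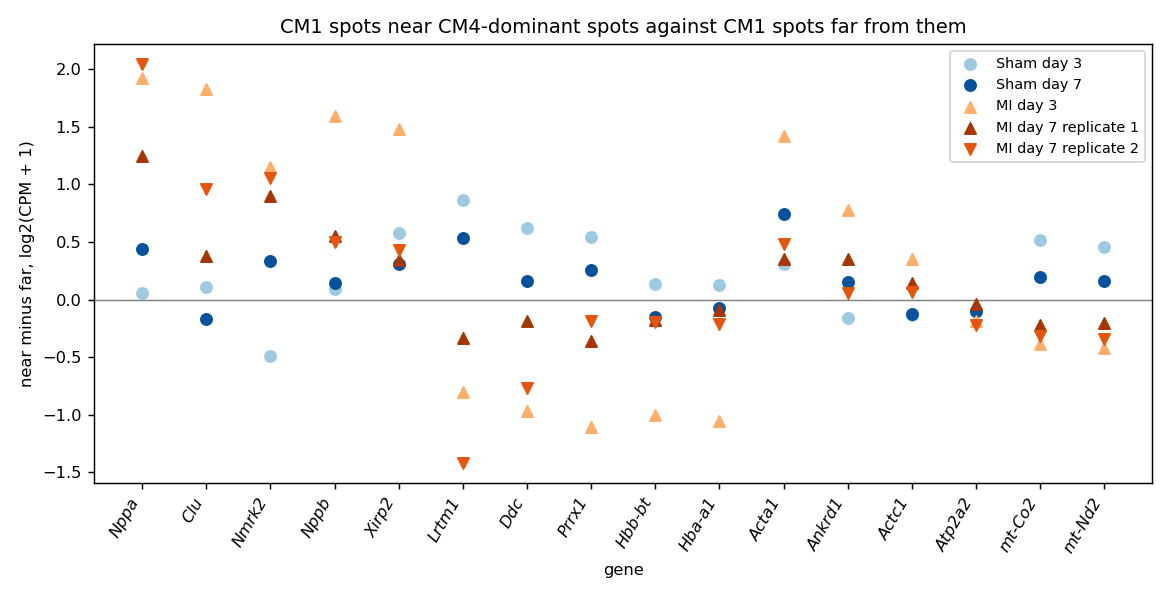
Near minus far difference in log2(CPM + 1) for each section, for the named genes and 6 further genes of the text, circles sham and triangles MI. The MI points of Nppa lie at 1.24 to 2.05 and those of sham at 0.06 and 0.44, while mt-Co2 is above 0 in both sham sections and below 0 in all MI sections.

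Near and far CM1 spots also differed in their scores. The CM4 score was 0.123, 0.109, 0.120, 0.055 and 0.106 in near spots against 0.046, 0.052, 0.014, 0.021 and 0.022 in far spots. The CM5 score was higher in near spots of the 3 MI sections, at 0.0898, 0.1, and 0.0924 against 0.0577, 0.0395 and 0.0824 in far spots, and lower in near spots of the sham sections, at 0.0241 and 0.0186 against 0.0332 and 0.0315. Both scores were made from the expression values, so gene calls near CM4 spots are not fully independent of the scores. The part of both scores in the gene differences was not tested. The Nppa level of the CM4-dominant spots was 313, 340, 22578, 336 and 4390 CPM. The place of near spots differed too. In Sham day 3 24.3% of near spots had fewer than 6 neighbouring spots against 5.84% of far spots, in Sham day 7 the shares were 12.3% and 13.2%, and in the MI sections 7.05% to 11.9% of near spots and 25.2% to 29.7% of far spots did, so that near spots of the Sham day 3 section lay more often at the edge and those of MI sections more often inside. The part of this edge position, and of the 3 fibroblast markers called higher near CM4 spots in MI (Lum, Mfap4 and Fbln1, calls lost under 3 to 5 of 10 alternatives with all sections, with 0 of 15 immune markers called and a median of 0.41), was not tested. The near fit had 3 residual degrees of freedom and also borrowed error from the other genes. Its small p-values therefore do not measure how closely the sections agree on a gene.

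Some genes varied smoothly across the CM1 spots of a section. Moran's I, which is near 1 where neighbouring spots have like levels and near 0 where they do not, was computed for 4727 genes, and the median gene had -0.04 in its lowest section. Ordered by their lowest section, the highest were mt-Nd2 (0.533 to 0.688), mt-Nd4 (0.499 to 0.649), mt-Cytb (0.453 to 0.699) and mt-Atp6 (0.447 to 0.688), followed by Actc1, cardiac alpha-actin, at 0.434 to 0.654 and, among the first 10, Ankrd1, a stretch-responsive gene, at 0.343 to 0.535. With mitochondrial and haemoglobin genes out of the total, a setting chosen after seeing the data, Tnni1 came first (lowest section 0.346), then Ankrd1 (0.328), Actc1 (0.285), Myl2 (0.278) and Ddc (0.254), with Myh7 (0.241) and Nppa (0.233) among the first 10. The UMI count itself had a Moran's I of 0.134 to 0.524 and the CM1 score one of 0.179 to 0.377, and their part in these values was not tested.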

How the data were processed

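Visium sections of 5 hearts were analysed. Per the labels and the methods of the study, the authors aligned reads with Space Ranger to mm10 (GRCm38), processed spots in Seurat and transferred 11 type scores from single-nucleus data. The deposited tables hold whole-number UMI counts for Sham day 3 and, for the other 4 sections, sctransform-corrected values, a score near a count, so no count test was used and the mixed units were kept. The deposited type scores are a fraction per spot, and the deposited spot positions were divided by the median nearest-neighbour spacing. Depth is given by the UMI counts per spot. Doublet calling does not apply to spots.

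Values were scaled per spot to CPM over the 13711 genes in all 5 tables and averaged over spots of a section. The section was the replicate. Genes at 1 CPM or more in at least 2 columns were tested with limma 3.58.1 (R 4.3.3, trended empirical Bayes, Benjamini-Hochberg, threshold 0.05) on log2(CPM + 1). Near and far columns had the section as a block and at least 20 spots each. Scripts were tested on simulated data. The members and gene lists were chosen with earlier results of these data known. Named genes were the 10 largest rises and falls (5 for near spots) at a mean of 20 CPM, with groups that did not overlap, or the same direction in all MI sections for near spots; CM1 to non-CM ratios were ordered by their median and Moran's I by its lowest section. Alternatives were another pseudocount (5), filters, scalings, summing, a CM1 score of at least 0.5, at least 5000 UMIs, interior spots, the first ring alone, Sham day 3 passed through sctransform, and each section left out. Some genes that met the naming rules are not reported here. Promoters came from RefSeq tables, coordinates from GENCODE M21. Section pairs share spot barcodes because the arrays use the same barcode set.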

Additional observations from a re-analysis of the deposited data

Results flagged for a closer look

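The near minus far differences of 7 named genes were tested to differ between MI and sham sections, on the log2(CPM + 1) scale. The MI minus sham value was 1.487 for Nppa, 1.085 for Clu, 1.11 for Nmrk2 and 0.7611 for Nppb, which were higher near CM4-dominant spots in MI. It was -1.549 for Lrtm1, -1.033 for Ddc and -0.4826 for Hba-a1 (limma adjusted p = 0.0446), which were lower there. The call of Hba-a1 was lost under 5 alternatives that kept all sections and without Sham day 3, Sham day 7 or MI day 3.

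The mitochondrially encoded share of CM1 spots was higher near CM4-dominant spots than far from them in both sham sections, by 4.603 percentage points in Sham day 3 and 1.695 in Sham day 7. It differed by -3.147 points in MI day 3, -2.777 in MI day 7 replicate 1 and -3.247 in MI day 7 replicate 2, so every sham section moved one way and every MI section the other. The difference of the share was not tested, although 11 of the 13 genes behind it passed the test of the difference one by one. Groups of at most 2 sections were too small to test single sections for outliers.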

How the results depend on the processing

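No called difference among the 20 genes named for the day, the 20 for MI and the 10 for near spots changed sign. The day median of the fatty acid list moved from -0.16 to 0.01, and the balance of calls turned, both under median-of-ratios scaling, for day 7 against day 3 from 102 higher and 329 lower to 192 and 111, and near CM4 spots in MI from 71 and 25 to 15 and 50. Calls for MI against sham (42) were 13 under median-of-ratios scaling, 16 without mitochondrial and haemoglobin genes in the total, 18 in CM1 spots away from other types, and 62 to 234 with a section left out. Day calls (431) were 91 away from other types and 144 (without MI day 3) to 754 (without MI day 7 replicate 1) with a section left out. Near calls in MI (96) were 56 without mitochondrial and haemoglobin genes, 42 at a CM1 score of at least 0.5, 35 in the first ring alone, where MI day 3 had 18 near spots and dropped out, and 49 (without MI day 3) to 106 with a section left out. Near calls in sham (10) were 0 under median-of-ratios scaling, 1 without those genes, 85 in the first ring alone and 0 (without Sham day 3) to 30 (without MI day 3). Near calls for the difference (47) were 19 without those genes and 14 (without Sham day 3) to 73 (without Sham day 7). Calls for MI against sham on the CM1 minus non-CM difference (16) were 1 with a pseudocount of 5, under median-of-ratios scaling, without those genes, with summed values, at a score of at least 0.5 and at 5000 UMIs or more, 2 with no filter, and 0 (without Sham day 3) to 1162 (without MI day 7 replicate 1). The lowest Moran's I of Actc1 moved from 0.434 to 0.285 without those genes. The causes were not tested, and a lone section left in a group was assumed to vary like the others. Calls kept in every alternative were 28 of 431 for the day, 9 of 96 near in MI (Acta1, Acta2, Ankrd1, Clu, Ddc, Myl9, Nmrk2, Nppa and Nppb) and 2 of 47 for the difference (Nppa and Lrtm1). Every alternative reused the same 5 hearts, and Acta2 is itself a CM4 marker. No paired analysis was possible because the groups of sections compared share fewer than 2 replicate numbers. Near and far spots, and CM1 and non-CM spots, were compared within sections. Every spot used had at least 1000 UMIs, and the number of sections limits precision.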

Other observations

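Some of the MI to sham calls in CM1 spots that changed least with the processing were in genes outside the named ones, chosen after their values were seen. Of the 42 genes called, 3 kept their call in every one of 15 alternatives, namely Tpm3-rs7, AI506816 and Cyfip2. All alternatives reused the same 5 hearts, so a difference between single hearts cannot be told apart from one between the operations. Tpm3-rs7, a related sequence of Tpm3 on chromosome 14 (chr14:113314608-113316754), was at 2.94, 2.77, 37.5, 11.2 and 33.1 CPM by section (2.80, limma adjusted p = 0.000785), and was also at 4.95, 3.202, 71.2, 14.1 and 56.5 CPM in non-CM spots. Its parent Tpm3 on chromosome 3 (chr3:90072649-90100902) was lower in MI, and reads of near-identical copies may be split between them, so both values are uncertain. The non-coding transcript AI506816 was at 1.29, 2.03, 52.0, 12.6 and 20.2 CPM (3.36, adjusted p = 0.000216).

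Of the genes higher in MI, 3 lie near each other on chromosome 11, and genes between them are not described here. Cyfip2, a subunit of the WAVE actin regulatory complex (chr11:46193850-46312859), was at 1.91, 6.52, 11.9, 27.2 and 27.2 CPM (2.01, limma adjusted p = 0.000113) and was also called between the days (1.23, adjusted p = 0.00141, lost in CM1 spots away from other types). Gm12167, 29 kb away, was at 0.708, 0.445, 5.62, 8.39 and 7.22 CPM, with no test given because it passed the filter on low values only through the MI sections, and Thg1l, 238 kb away, was at 1.38, 1.58, 6.96, 4.78 and 6.98 CPM (1.54, 0.00858, a call lost in CM1 spots away from other types). Jmjd7 (1.36, 0.0323) and Pla2g4b (1.28, 0.0486), adjacent on chromosome 2, were higher as well, and lost their calls under median-of-ratios scaling among others.

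Some genes of low level were nearly absent from sham CM1 spots. Complement C3 was at 2.20, 0.551, 29.9, 3.41 and 16.3 CPM, Spp1 (osteopontin) at 0.599, 0.115, 66.8, 1.37 and 2.84 CPM and the mesothelial marker Msln at 0, 0.230, 8.11, 1.49 and 2.94 CPM. None of them would have passed the filter on low values without the MI sections, so no test is given for them. In all 3 the MI day 3 section was the highest.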
